A study of Mus musculus with 8 samples.

Results

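Pax5 (ENSMUSG00000014030.15) lies on the minus strand of mouse chromosome 4, at chr4:44524757-44710487 in genome build GRCm38. Its locus was chosen by position, as every 50 kb bin of the contact matrices over the gene and within 2 Mb on each side, in the window chr4:42500161-46750225. This gave 85 of the 53357 bins of the genome, of which 78 were among the 47340 autosomal bins kept for testing. The 7 bins left out, at the end of the window farthest downstream of Pax5, had at most 0.0439 times the mean coverage in read pairs between chromosomes. Of 20807 protein-coding genes on the autosomes, 85 start in the window. The Pax5 gene covers 5 bins, and its transcription start lies in chr4:44699832-44749970, called the start bin here. Zcchc7 (ENSMUSG00000035649.17, chr4:44755877-44932215, plus strand) starts in the next bin and covers 4 bins on the upstream side of Pax5. Positions below are given in kb from the start bin, negative towards the 3′ end of Pax5 and beyond it, positive towards Zcchc7 and beyond it.

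In situ Hi-C cuts crosslinked chromatin with MboI, joins ends that lie close together in the nucleus and counts read pairs between bins of the genome. The 8 libraries came from splenic B cells of mice described as male and 6 to 12 weeks old on a C57BL/6 Pep3b background. All cells were isolated as naive B cells, labelled with the division dye CellTrace Violet, stimulated with lipopolysaccharide (LPS) at 25 µg/ml and sorted as activated CD69+ cells that had not yet divided. The 4 groups, each of 2 biological replicates, were cells at 3 h, at 10 h, at 33 h labelled imminent division and at 33 h labelled pre-S. The first 3 groups came from C57BL/6 mice. The pre-S cells came from C57BL/6 FUCCI mice, which carry a fluorescent reporter of the cell cycle, and were sorted as mAG- mKO2hi cells, so that the stage cannot be told apart from the reporter strain or the sorting gate. Naive cells, expanded cells and plasmablasts were not analysed here. The files hold DNA contacts and no RNA, so the cells could not be set against expression markers.

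Pax5 encodes a paired-domain transcription factor that commits lymphoid progenitors to the B cell lineage and holds mature cells in it. It activates genes of B cell surface signalling and antigen presentation and represses genes of other lineages and of the plasma cell program, and it is itself repressed, through Blimp-1 (Prdm1), when B cells become plasma cells. The gene has an enhancer in one of its introns, and in human B cells a distal enhancer has been described near ZCCHC7, which encodes a zinc finger protein of nuclear RNA surveillance.

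The sequences shown are the promoter of Pax5, with the sites at which the assay cuts it, and matches to the motif of CTCF, a factor that anchors chromatin loops, in bins of the gene and in a bin beyond Zcchc7. The promoter of Pax5 in RefSeq (GRCm38.p6), 300 bases at chr4:44710645-44710944 on the minus strand, is shown because the start bin is named for it, with its 2 MboI sites (GATC) in capitals.
Pax5 promoter: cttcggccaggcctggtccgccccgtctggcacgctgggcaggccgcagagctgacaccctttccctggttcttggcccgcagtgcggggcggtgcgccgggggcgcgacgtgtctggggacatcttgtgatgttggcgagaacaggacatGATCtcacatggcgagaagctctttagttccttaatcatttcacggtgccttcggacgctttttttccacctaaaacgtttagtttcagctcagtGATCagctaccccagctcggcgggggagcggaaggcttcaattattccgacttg
It holds 23 CpG dinucleotides, more than 78.5% of the 32851 promoters of the same length in RefSeq, of which 48.0% hold an MboI site. The start bin holds 126 MboI fragments, close to the median of 123 of the kept bins.

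Matches to the 12-base core of the CTCF motif were searched on both strands of every kept bin. They were present in 28 of the 78 kept bins of the window, against 20.5% of all 47340 kept bins. The start bin and the Zcchc7 bins held 0 matches, and the Pax5 gene bins held 2, both within Pax5 itself. These 2 are shown with the 2 matches of the bin at +250 kb (Grhpr and Zbtb5), with which the gene body of Pax5 shared some of its most strongly changed contacts. The core is in capitals, read 5′ to 3′ on the strand given.
Bin at -150 kb, chr4:44564748-44564759, plus strand: gcggCCACTAGAGGGCagca
Bin at -50 kb, chr4:44669684-44669695, minus strand: ccaaCCACCAGGTGGCacca
Bin at +250 kb, chr4:44970981-44970992, plus strand: gagtCCACTAGGTGGCgata
Bin at +250 kb within Grhpr, chr4:44985985-44985996, plus strand: tttcCCAGTAGAGGGCtcag
A match is a run of letters in the reference genome, and binding was not measured in these cells.

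The libraries held 88703088 to 218945191 read pairs, of which 55275 to 141141 joined different bins of the window. The start bin took part in 3160 to 7431 read pairs within chromosome 4, of which 1961 to 4626 joined it to other bins of the window, and its coverage in read pairs between chromosomes was 1.89 to 2.2 times the mean bin. Within the window, replicates differed by about sampling noise in 3 of the groups and by more than it at 3 h, with a chi-square per bin pair of 1.13 ± 0.0370 for 3 h, 0.982 ± 0.0344 for 10 h, 1.04 ± 0.0310 for imminent division, then 0.992 ± 0.0386 for pre-S (± the standard error that sampling gives, over 1463, 1690, 2079 and 1341 bin pairs). The labels number them as separate samples and they differed in depth, so each was counted. The second imminent division library stood apart in its sex chromosomes, with 3.74% of read ends on X and 0.0490% on Y, against 2.39 to 2.84% and 0.0804 to 0.123% in the other libraries, more X and less Y than in any of the others, which goes against male cells alone. Its part in the results was not tested beyond the values without it given below.

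At every stage the promoter of Pax5 was in contact mainly with the Zcchc7 side of the locus. Contact strength is given as log2 of the read pairs observed over those expected for the same distance from all autosomes (log2 O/E). Of the bins at least 100 kb away, the 5 with the highest mean over the 8 libraries lay side by side, from +100 kb to +300 kb, and no bin downstream of the promoter was among them. The bin at +200 kb over the 3′ part of Zcchc7 led with a mean of 2.42. Its values were 2.55 and 2.71 for 3 h, 2.80 and 2.58 for 10 h, 2.12 and 2.09 for imminent division, then 2.39 and 2.12 for pre-S. The 3 h and 10 h libraries all lay above the libraries of both 33 h groups.

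The bin at +250 kb, which holds the start of Grhpr, a metabolic enzyme gene, and part of Zbtb5, followed at a mean of 2.15, with 2.37 and 2.37, 2.45 and 2.33, 1.88 and 1.84, and 2.18 and 1.78 in the same order of groups. The bin at +150 kb within Zcchc7 had a mean of 1.98, with 2.15 and 2.10 for 3 h, 2.02 and 2.12 for 10 h, 1.66 and 1.62 for imminent division, then 2.10 and 2.08 for pre-S. Here the pre-S libraries overlapped those of 3 h and 10 h, and only the imminent division libraries lay apart. The bin at +300 kb with Zbtb5, Polr1e (a subunit of RNA polymerase I) and Fbxo10 (a ubiquitin ligase adaptor) had a mean of 1.86, with 2.36 and 2.04, 2.21 and 2.32, 1.38 and 1.42, and 1.55 and 1.61. The bin at +100 kb, also in Zcchc7, had a mean of 1.4, with 1.61 and 1.54, 1.60 and 1.54, 1.18 and 1.09, and 1.36 and 1.25. In each of these 5 bins both imminent division libraries lay below all 4 of the earlier libraries on the O/E scale. In the edgeR test of normalized counts given below, the bin at +300 kb alone of these 5 was called from 10 h to imminent division.

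**Figure D1:**
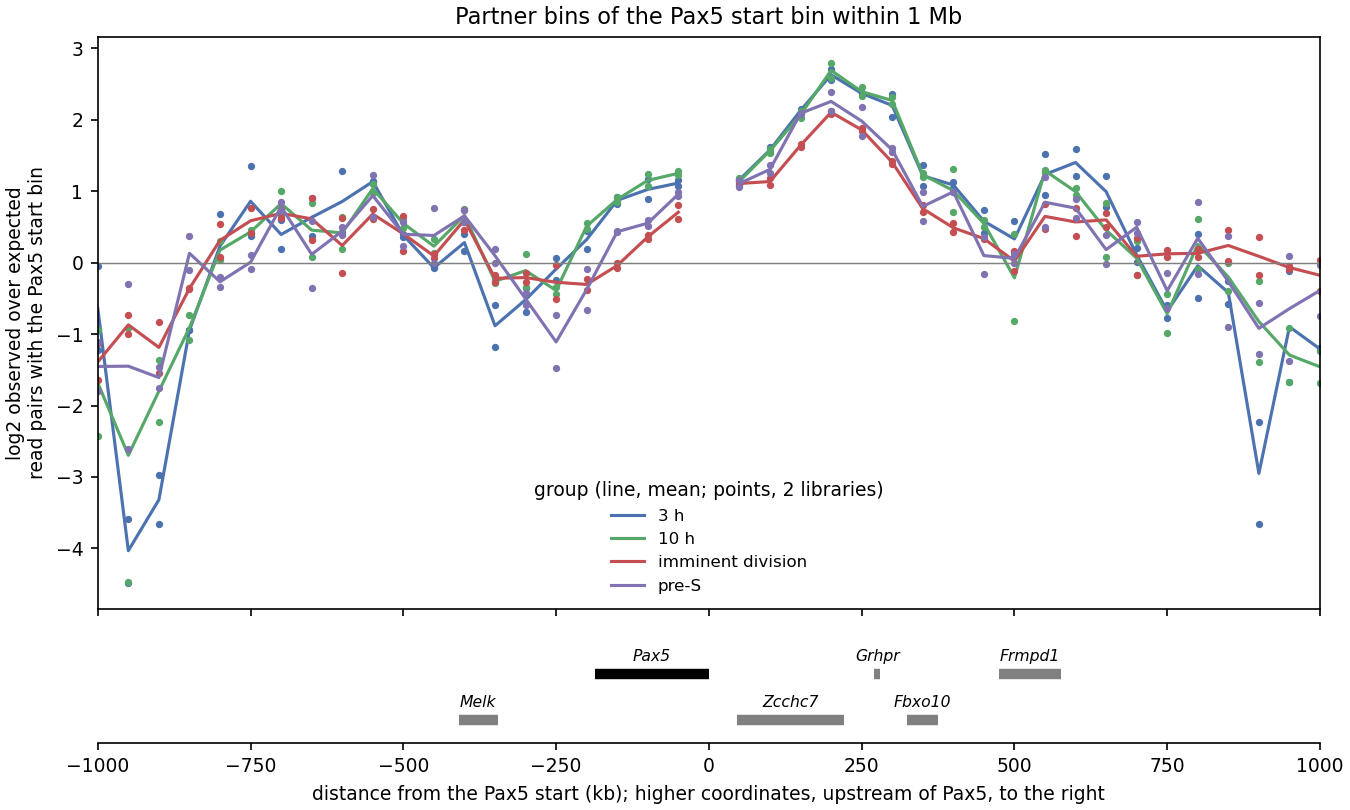
Contacts of the Pax5 start bin with bins within 1 Mb, as log2 O/E (y axis) against distance from the start bin in kb (x axis); lines are group means of 2 libraries, points are libraries and the track marks genes. The profile is highest over Zcchc7 and the genes just beyond it, where the imminent division line runs below the 3 h and 10 h lines.

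Between 10 h and imminent division the locus lost contacts, most of all within the Pax5 gene and between the gene and Zcchc7. The comparison asks which contacts change before the first division. Differential interactions (DIs, bin pairs with an adjusted p under 0.05, FDR, in the edgeR quasi-likelihood test over all 1457371 pairs tested) numbered 183 of the 2251 tested pairs of the window. Of these 175 were weaker and 8 stronger, 7.77% and 0.355% of the window's pairs, against 1.39% weaker and 0.644% stronger among all pairs tested and 1.35% weaker among pairs at the same distances. The median log2 change over the window was -0.20, against 0.02 over all pairs, and 1526 of the 2251 pairs lay below 0.

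All 10 pairs within the Pax5 gene were weaker, with a median log2 change of -0.62. So were 15 of the 20 pairs between the gene and Zcchc7, with a median of -0.64, and 32 of the 138 pairs between the gene and bins upstream of Zcchc7. By contrast 0 of the 6 pairs within Zcchc7 were called, and their median was -0.04. Pairs that reached across the locus, from downstream of Pax5 to upstream of Zcchc7, were weaker in 68 of 798 cases, at a median of -0.33. These shares were not tested against each other. The bins with most DIs were those at -200, -150 and -100 kb in the 3′ part and middle of Pax5, with 19 of 55, 18 of 50 and 18 of 56 tested pairs. The weaker pairs spanned 50 to 2700 kb, with a median of 600 kb.

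The 3 weaker pairs of smallest p all joined the gene body of Pax5 with the genes just beyond Zcchc7. Between the bin at -150 kb and that at +250 kb (Grhpr and Zbtb5) normalized counts were 123.0 and 102.4 for 3 h, 124.8 and 119.9 for 10 h, 54.6 and 50.6 for imminent division, then 76.9 and 81.5 for pre-S, a change from 10 h to imminent division of -1.22 (SE 0.16, edgeR FDR 7.23e-09). Between -100 kb and +350 kb (Fbxo10) they were 119.2 and 91.5, 109.0 and 106.5, 54.4 and 35.1, and 65.3 and 59.3 in the same order, a change of -1.29 (SE 0.17, edgeR FDR 1.99e-08). Between -200 kb and +300 kb they were 75.3 and 81.6, 116.5 and 91.8, 45.2 and 44.4, and 70.1 and 59.3, a change of -1.20 (SE 0.17, edgeR FDR 2.24e-07). Of the 6 bins in these pairs, those at -150, +250 and +350 kb held a CTCF core match and those at -200, -100 and +300 kb did not. In all 3 pairs the lowest 2 of the 8 libraries were those of imminent division, and the pre-S libraries lay between them and the 10 h libraries.

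The start bin itself had 5 DIs among its 50 tested pairs, and all 5 were weaker, that is 10% against 1.61% of pairs at the same distances. This share was higher than in 91.9% of 13149 bins, those of the 13626 with a protein-coding start that were kept and had enough tested pairs. The rank was not matched for coverage, which at the start bin was 1.89 to 2.2 times the mean. Of the 5 DIs, 4 joined the promoter with the other bins of the gene. With the bin at -50 kb the normalized counts were 377.0 and 407.7 for 3 h, 442.2 and 433.5 for 10 h, 316.5 and 346.5 for imminent division, then 386.4 and 398.2 for pre-S, a change of -0.40 (SE 0.08, edgeR FDR 0.00164). With the bin at -100 kb they were 160.3 and 196.1, 207.7 and 185.8, 129.0 and 122.4, and 129.6 and 138.7, a change of -0.64 (SE 0.12, edgeR FDR 1.56e-04). The imminent division libraries lay below all 3 h and 10 h libraries in both pairs, and the pre-S libraries lay near them only in the second.

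Farther into the gene, the bin at -150 kb had 110.8 and 118.2, 112.8 and 118.0, 64.0 and 66.3, and 84.0 and 85.7 normalized counts with the start bin, a change of -0.82 (SE 0.15, edgeR FDR 1.61e-04). The bin at -200 kb, at the 3′ end of Pax5, had 68.1 and 56.8, 72.2 and 67.2, 42.5 and 38.4, and 30.4 and 45.4, a change of -0.78 (SE 0.19, edgeR FDR 0.00831). The last pair joined the promoter with +300 kb (Zbtb5, Polr1e and Fbxo10), where counts were 165.3 and 128.9, 150.3 and 164.4, 100.9 and 100.5, and 98.5 and 104.5, a change of -0.65 (SE 0.13, edgeR FDR 6.66e-04). The contact of the start bin with the bin that holds the start of Zcchc7, at +50 kb, was not called, with 402.2 and 402.3, 414.3 and 393.8, 446.1 and 436.0, and 422.0 and 450.7 and a change of 0.13 (SE 0.08, edgeR FDR 0.460). The 3 bins farther inside Zcchc7 were not called either, with changes of -0.20, -0.12 and -0.22 at +100, +150 and +200 kb. At the far end of the mapped range the values ran the other way. Mean log2 O/E of the start bin with +900, +950 and +1000 kb was -0.83, -1.29 and -1.46 at 10 h and 0.09, -0.07 and -0.18 at imminent division, from 2 to 20 read pairs a library in these 2 groups, and none of the 3 was called (changes of 0.79, 1.17 and 1.18, edgeR FDR 0.443, 0.296 and 0.335).

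The 3 stronger pairs of smallest p lay away from Pax5. The bin at -1250 kb holds the starts of Cd72, Sit1, Ccdc107 and Arhgef39. Of these, Cd72 is a B cell inhibitory receptor gene that Pax5 is known to activate. The summed interactivity of this bin fell from 10 h to imminent division (-0.16, edgeR FDR 0.00145). It gained contact with the bin at -1400 kb (Atp8b5), where normalized counts were 29.1 and 13.7 for 3 h, 14.9 and 17.9 for 10 h, 40.1 and 38.3 for imminent division, then 26.3 and 9.3 for pre-S, a change of 1.23 (SE 0.28, edgeR FDR 0.00399). It also gained contact with -1500 kb (Unc13b), by 1.34 (SE 0.33, edgeR FDR 0.00940). The third joined +650 kb (Dcaf10 and Slc25a51) with +900 kb, by 0.71 (SE 0.18, edgeR FDR 0.0139), and was 0.42 and not called without the second imminent division library. Without the first or second 10 h library, or the first or second imminent division library, the window had 86, 43, 79 or 112 DIs, the pairs within the gene had 4 without the second 10 h library, and those with Zcchc7 had 8, 8 and 9 without the first or second 10 h library or the first imminent division library. The start bin had 2 DIs without the second 10 h library, and DESeq2 called 58 of the 239 pairs of the window to which it gave an adjusted p, its own filter on low counts leaving out the others. The window also had fewer DIs with offsets for each distance class and with the abundance filter at 2-fold, with the counts given in the last section.

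**Figure D2:**
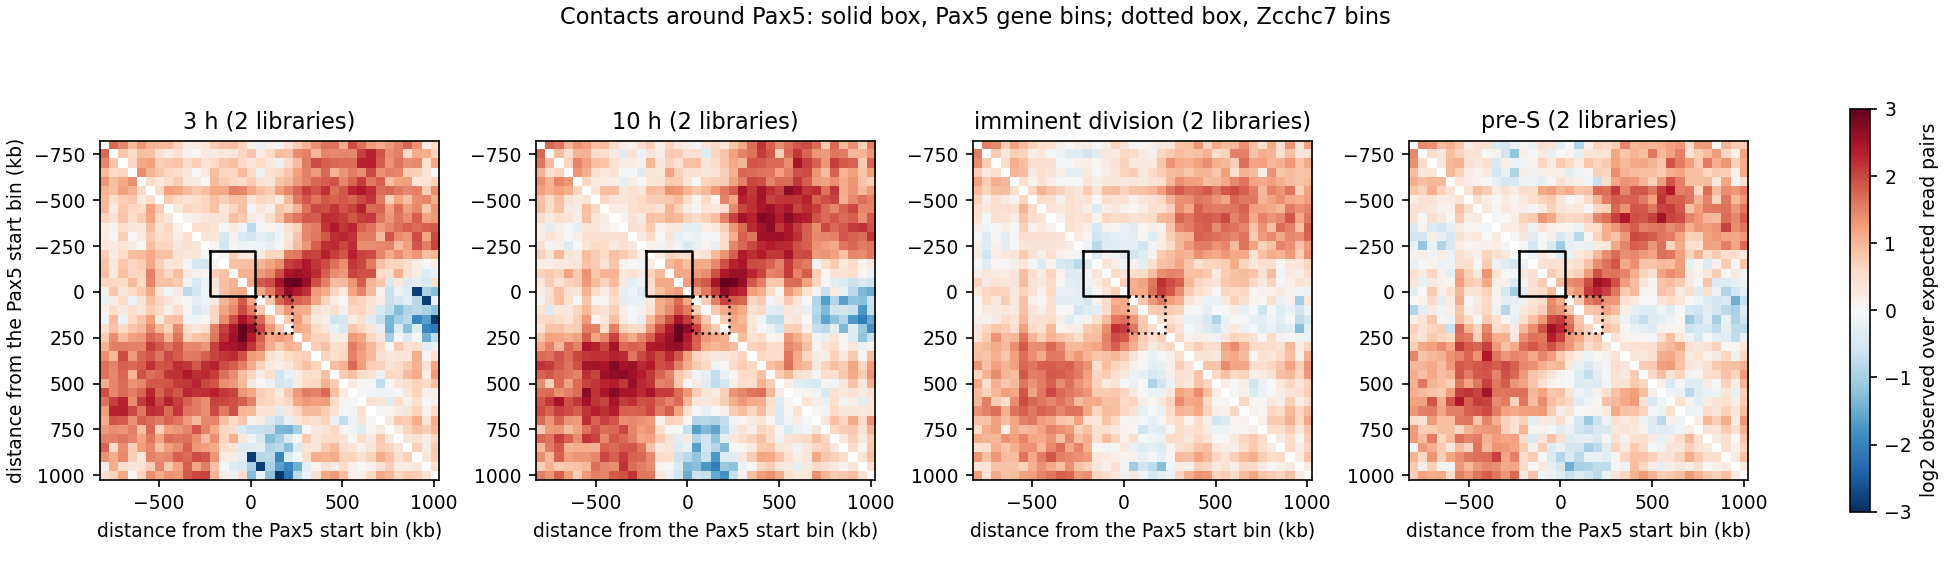
Contact maps of the locus in the 4 groups, each cell being log2 O/E of a pair of 50 kb bins from -800 kb to +1000 kb of the start bin (both axes, kb). Read pairs of the 2 libraries of a group were pooled. The solid box marks the Pax5 gene bins and the dotted box the Zcchc7 bins. Contacts within Pax5, and of Pax5 with bins from +50 kb to +450 kb, are mostly lower on this O/E scale at imminent division than at 10 h (little so for the start bin with +50 kb, whose normalized counts changed by 0.13), while most of those with +950 and +1000 kb are higher. Summed within the gene, mean log2 O/E of the libraries was 0.92 at 10 h and 0.26 at imminent division.

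From 10 h to pre-S fewer contacts were called, and in the edgeR test as set out above all of those were weaker. The comparison shares the 10 h libraries with the one above, so the 2 sets of changes are not independent. The window had 41 DIs, all weaker, or 1.82% of its pairs against 0.250% of all pairs, and 0 stronger against 0.350%. The median log2 change over the window was -0.25, with 1670 of the 2251 pairs below 0, against -0.20 and 1526 at imminent division. Depth differed, with 117386199 and 105015427 read pairs in the pre-S libraries and 180325399 and 218945191 in those of imminent division. The counts of calls are therefore not a measure of how much each group changed. Within the gene 4 of 10 pairs were weaker (median -0.43), as were 6 of the 20 pairs between the gene and Zcchc7 (median -0.45) and 15 of the 138 between the gene and the bins beyond. Of the 6 pairs within Zcchc7 and the 85 between Zcchc7 and the bins upstream of it, 0 were called.

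Of the 3 pairs of smallest p, the first and the second had an end in the gene body. Between -100 kb and +250 kb (Grhpr and Zbtb5) normalized counts were 140.8 and 164.8 for 3 h, 168.9 and 167.2 for 10 h, 92.1 and 91.5 for imminent division, then 76.2 and 98.9 for pre-S, a change of -0.95 (SE 0.15, edgeR FDR 6.33e-06). Between -100 kb and +300 kb the change was -0.92 (SE 0.16, edgeR FDR 8.52e-05). The third, of -0.53 (SE 0.10, edgeR FDR 0.00105), joined +1800 and +1900 kb around Coro2a, a gene of an actin-binding coronin, far from Pax5. The start bin had 3 DIs among 50 pairs, 6% against 0.297% at the same distances. The share was higher than in 99.0% of the 13149 start bins, whose median was 0, again not matched for coverage. The 3 DIs were the pairs with -100 kb (-0.55, SE 0.13, edgeR FDR 0.0177), with -200 kb (-0.89, SE 0.23, edgeR FDR 0.0290) and with +300 kb (-0.64, SE 0.15, edgeR FDR 0.0114). Each of these was also called at imminent division against the same 10 h libraries. Without the first or second 10 h library, or the first or second pre-S library, pairs within the gene had 1, 0, 0 and 1 DIs and pairs with Zcchc7 had 0, 2, 0 and 0. Without either 10 h library the window had 7 and 5 DIs and without either pre-S library 1 and 6, the start bin then had 0 in all 4 cases, and with the coverage of each bin in the offsets the window had 11, of which 3 were stronger, and the start bin 0.

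Neither the step from 3 h to 10 h nor the difference between the 33 h groups showed a DI of the start bin, except that between the 33 h groups it had 1 with TMM factors and 2 with the coverage of each bin in the offsets. From 3 h to 10 h the window had 0 DIs by edgeR, against 0.000618% of all pairs, while 160 of its 2251 pairs (7.11%) had an unadjusted p under 0.05, against 5.93% of all pairs, and DESeq2 also called 0. Between imminent division and pre-S the window had 10 DIs, 3 stronger and 7 weaker, or 0.444% of its pairs against 0.372% of all pairs. The 10 pairs within the gene and the 20 with Zcchc7 had 0 calls, with medians of -0.18 and -0.17, and 9 of the 10 and 17 of the 20 lay below 0. The start bin had 0 DIs and 6 pairs with an unadjusted p under 0.05.

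The called pairs between the 33 h groups lay outside Pax5. The bin of Cd72 at -1250 kb was in more contact at imminent division with -1450 kb (1.29, SE 0.31, edgeR FDR 0.0210) and with -1400 kb (1.08, SE 0.28, edgeR FDR 0.0463). Without the first pre-S library these changes were 0.62 and 2.05 and without the second 2.33 and 0.57, the smaller one not called in each case. More contact at imminent division was also seen between the bins at +1350 and +1500 kb near Tmod1, a tropomodulin gene (0.76, SE 0.20, edgeR FDR 0.0473). Of the weaker pairs, that of -1850 and -1300 kb changed by -1.24 (SE 0.27, edgeR FDR 0.00736). Another reached across Pax5 from the downstream gene Melk, a kinase gene linked to the cell cycle, to +350 kb (-0.89, SE 0.20, edgeR FDR 0.0111). Without the second imminent division library or either pre-S library 1 DI was left in each case, and with the coverage of each bin in the offsets 65 pairs of the window were called, all weaker at imminent division, among them 3 of the 10 within the gene and 6 of the 20 with Zcchc7.

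Summed over bins and compared over the 4 groups, the contacts of the Pax5 gene with itself separated the stages most clearly. Within the gene bins log2 O/E was 0.81 and 0.81 for 3 h, 0.91 and 0.93 for 10 h, 0.24 and 0.28 for imminent division, then 0.47 and 0.48 for pre-S. No group overlapped another, and the order was 10 h, 3 h, pre-S, imminent division. An exact permutation test of the F statistic over all ways to split 8 libraries into 4 pairs gave p = 0.00952, the smallest it can give, or 0.0190 after Benjamini-Hochberg adjustment over 8 such values. The start bin with the other gene bins gave means of 0.99 ± 0.07 for 3 h, 1.1 ± 0.05 for 10 h, 0.40 ± 0.07 for imminent division, then 0.68 ± 0.06 for pre-S (SD, n = 2; exact permutation p = 0.00952, adjusted 0.0190). With only 2 libraries in each group, no pair of groups can be tested alone this way.

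The start bin with the 4 Zcchc7 bins gave 1.69 and 1.68 for 3 h, 1.72 and 1.65 for 10 h, 1.41 and 1.38 for imminent division, then 1.55 and 1.51 for pre-S (exact permutation p = 0.0286, adjusted 0.0381). The 3 h and 10 h libraries overlapped, and the 33 h groups lay below them and apart from each other. The size of this fall depends on the scaling. On the normalized counts of the edgeR test the same 4 pairs changed from 10 h to imminent division by 0.13, -0.20, -0.12 and -0.22 with none called. With bin coverage divided out the fall in log2 O/E was -0.59, which was not tested by itself. Contacts of the start bin with all bins within 2 Mb fell from means of 1.03 ± 0.02 and 1.05 ± 0.06 at 3 h and 10 h to 0.69 ± 0.04 at imminent division and 0.79 ± 0.01 at pre-S (SD, n = 2; exact permutation p = 0.0286, adjusted 0.0381). Over the whole window the means were 0.63, 0.66, 0.43 and 0.42 and the adjusted exact permutation p was 0.0980. Without the first imminent division library or either pre-S library the sum within 2 Mb had an adjusted exact permutation p of 0.0508. The tilt towards the Zcchc7 side, log2 of read pairs upstream over downstream from 100 kb to 2 Mb, was 1.22, 1.13, 1.08 and 1.21 (exact permutation p = 0.419), so a change in it was not detectable here. When each bin's coverage was divided out, the adjusted exact permutation p of the sums within the gene and of the start bin with the gene, with Zcchc7 and within 2 Mb rose above 0.05 while their falls from 10 h to imminent division grew, to -0.71 within the gene.

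**Figure D3:**
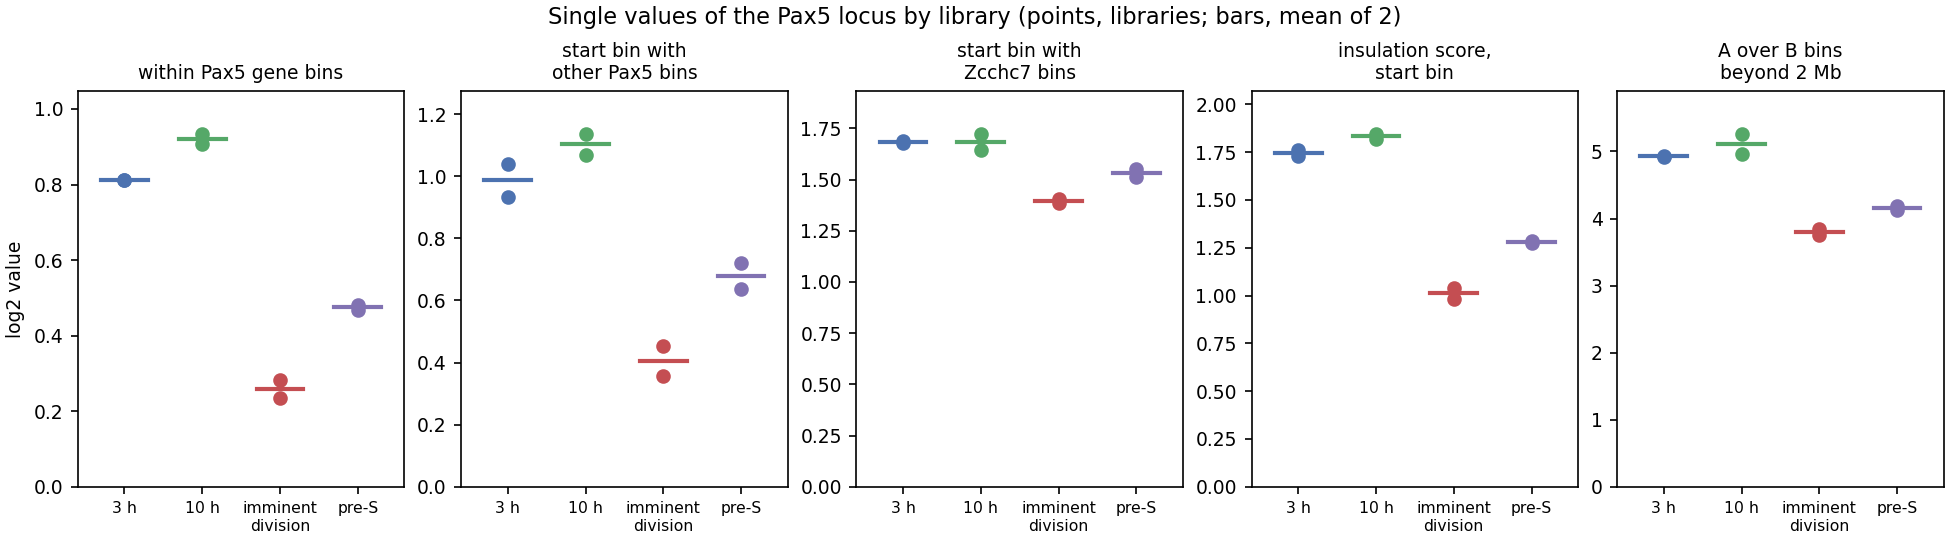
Values of single measures of the Pax5 locus in the 8 libraries (points, by group on the x axis), each panel on its own log2 scale. Both imminent division libraries are the lowest in the panel of contacts within the gene, at 0.24 and 0.28, and the 10 h libraries the highest.

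As a description beside other genes, the fall within Pax5 was at the far end of the range. Among the 1134 protein-coding genes that cover 5 or more kept bins, Pax5 had a higher log2 O/E within its own bins at 10 h than 93.0% and the lowest change from 10 h to imminent division, -0.66 against a median of 0.05, with 0 genes lower. The next were Xylt1 (-0.60), Ebf1 (-0.57), Foxp1 (-0.54) and Prkcb (-0.54), named after their values were seen. Ebf1 and Foxp1 encode transcription factors of B cell development and Prkcb a kinase of B cell receptor signalling. These roles do not cover Xylt1, and whether B cell genes were more frequent among the largest falls was not tested. From 10 h to pre-S the change within Pax5 was -0.45, and 1 gene was lower. The other genes share libraries and normalization with Pax5, and no test was made of this rank. They were not matched for the number of bins or for the level at 10 h. Pax5 and the genes named next to it all lay above the median level at 10 h, -0.07.

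The start of Pax5 lay inside a densely connected domain that became less so at 33 h. The insulation score, log2 of the mean count across a bin in a 500 kb square over the mean of the chromosome, is high where few contacts are blocked and low at domain borders. At the start bin it was 1.76 and 1.73 for 3 h, 1.85 and 1.82 for 10 h, 0.98 and 1.04 for imminent division, then 1.27 and 1.29 for pre-S (exact permutation p = 0.00952, adjusted 0.0190). The groups did not overlap. At 10 h the score was higher than in 99.7% of 46768 bins, whose median was -0.31. Its fall of 0.82 to imminent division was exceeded by 3 of these bins, against a median change of 0.12 over all of them, and its change of -0.55 to pre-S was exceeded by 72. The other bins were not matched for the high score of the start bin at 10 h. The counts in the square were not corrected for the coverage of their bins. Unlike the sums above, the score was not checked with coverage divided out.

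The score peaked at +100 kb in Zcchc7, at 1.96, 2.01, 1.24 and 1.49 in the order of the groups, and not at the promoter. Counting as a minimum a bin whose score, as the mean of the 8 libraries, was the lowest among itself and 3 bins on each side, the nearest on the Zcchc7 side lay at +600 kb, over Trmt10b, Exosc3 and Dcaf10, with 0.41, 0.39, 0.49 and 0.34, and the nearest on the other side at -850 kb over Reck. Shallower dips lay nearer, at +400 kb and at -550 and -700 kb. At this minimum the means of the groups lay close to each other, unlike at the peak.

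**Figure D4:**
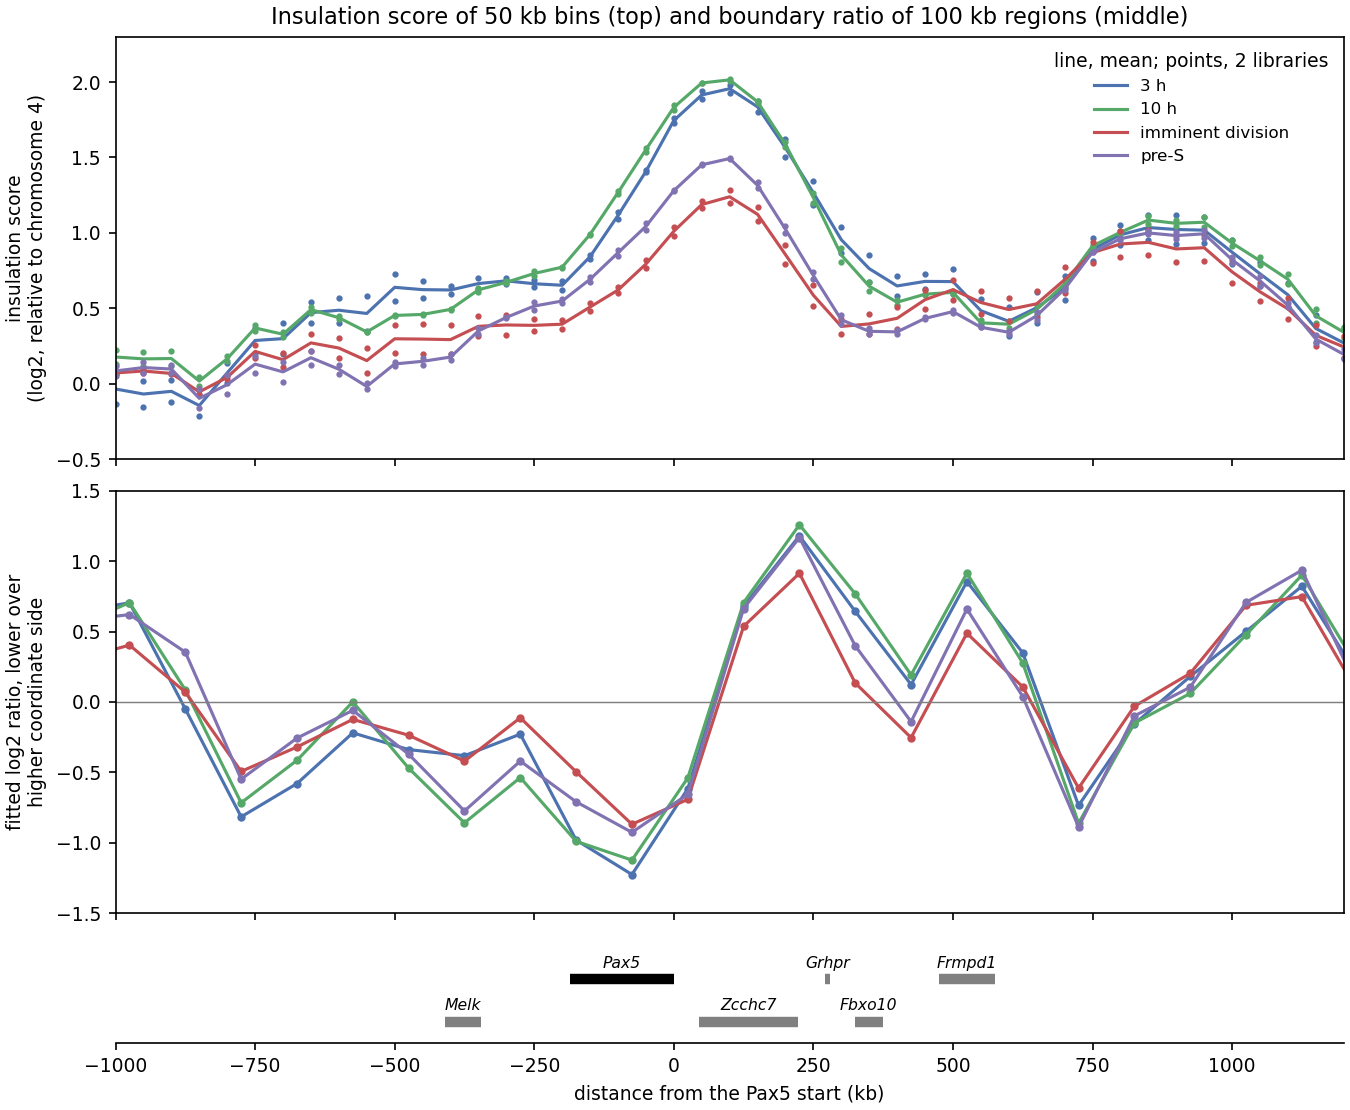
Upper panel, insulation score of 50 kb bins, and lower panel, boundary ratio of 100 kb regions (log2 of contacts towards lower over higher coordinates), both against distance from the start bin in kb, with a line for each group mean of 2 libraries. The insulation peak over Zcchc7 is 2.01 at 10 h and 1.24 at imminent division.

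The direction in which regions made their contacts also changed, in most called regions towards less one-sided. The boundary ratio, log2 of a 100 kb region's read pairs with the 1 Mb on the side of lower coordinates over those with the 1 Mb on the side of higher coordinates, was tested with edgeR's glmTreat for a change over 1.1-fold in 23553 regions, of which 40 lie in the window. From 10 h to imminent division 16 of the 40 changed, 14 to a smaller size of the log2 ratio (weaker) and 2 to a larger one, against 13.8% and 4.41% of all regions. Left-out bins add no counts, so regions near the downstream end of the window lacked part of their lower side. That at -1900 kb had 0 to 7 read pairs there in each library. Those called at -1800 and -1700 kb were affected, the latter being 1 of the 2 to a larger size. In 2 of the 16 the ratio changed sign, at +400 kb from 0.19 to -0.25, which counts as larger, and at +1700 kb from -0.29 to 0.14, which counts as smaller. The region at -200 kb in the 3′ part of Pax5 went from -0.98 and -1.0 at 10 h to -0.56 and -0.44, a change of 0.49 (edgeR FDR 8.22e-10), and that at -100 kb changed by 0.25 (edgeR FDR 0.0120). The region at +300 kb (Zbtb5, Polr1e and Fbxo10), which points back towards Pax5, went from 0.76 and 0.77 to 0.16 and 0.11, a change of -0.63 (edgeR FDR 1.38e-18).

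The region with the starts of Pax5 and Zcchc7 was not called, with a change of -0.15 (edgeR FDR 0.480). From 10 h to pre-S 3 regions were weaker, against 2.92% of all regions, at +300 kb (-0.37, edgeR FDR 2.15e-04), +400 kb (-0.33, edgeR FDR 0.00196) and -200 kb (0.28, edgeR FDR 0.0430). At +400 kb the ratio again changed sign, from 0.19 to -0.14. From 3 h to 10 h the region of Melk at -400 kb alone was called, with a ratio of -0.38 at 3 h and a stronger one of -0.86 at 10 h (edgeR FDR 1.79e-05), against 0.200% of all regions. At imminent division this ratio was -0.42 (against 10 h, edgeR FDR 1.25e-07), while at pre-S it was -0.77 and not called against 10 h (edgeR FDR 0.979). Between the 33 h groups 7 regions had a weaker ratio at imminent division, against 4.96% of all regions, and 0 of the 7 were Pax5 regions. Without the first pre-S library 1 region was called in this comparison and 1 from 10 h to pre-S, and without the second imminent division or second pre-S library the former had 4.

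The locus stayed in the A compartment throughout. The first principal component of the contact correlation at 100 kb, which is positive in the gene-rich, open A compartment and negative in B, was above 0 in 40 of 40 window bins in all 8 libraries, with values from 0.53 to 1.43, while 47.3% of all 23791 bins had a positive mean. At the start of Pax5 it was 1.197 and 1.067 for 3 h, 1.053 and 1.075 for 10 h, 1.168 and 1.144 for imminent division, then 1.101 and 1.113 for pre-S. The 3 h libraries overlapped every other group, which did not overlap each other, and limma called no change, with -0.07 (FDR 0.452) from 3 h to 10 h, 0.09 (FDR 0.126) from 10 h to imminent division, 0.04 (FDR 0.456) to pre-S and 0.05 (FDR 0.416) between the 33 h groups. Of the 40 window bins, 0, 5, 0 and 3 were called in these comparisons, against 3.29%, 22.9%, 24.6% and 17.6% of all bins. Among the 5 was the bin at +100 kb in Zcchc7, which rose by 0.12 (limma FDR 0.0378). The change at the start bin from 10 h to imminent division was called with quantile normalization (0.09, limma FDR 0.0396) or without either 3 h library (limma FDR 0.0154), and that from 3 h to 10 h without the second 3 h library (-0.13, limma FDR 0.0180).

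At long range the start of Pax5 was strongly selective for A bins, and became less so. Beyond 2 Mb on chromosome 4 it had 32 and 52 read pairs with 1613 B bins at 10 h and 155 and 196 at imminent division, and 873 and 1148 with 1293 A bins at 10 h and 1471 and 2000 at imminent division. As log2 of O/E with A bins over that with B bins, this was 4.94 and 4.92 for 3 h, 5.27 and 4.96 for 10 h, 3.75 and 3.85 for imminent division, then 4.13 and 4.18 for pre-S (exact permutation p = 0.00952, adjusted 0.0190). The 3 h libraries lay just below those of 10 h, and both 33 h groups lay apart below them. Of 10136 promoter bins in the A compartment, 99.4% had a lower value at 10 h, when their median was 2.48. Their median change to imminent division was -0.24 and to pre-S -0.25, against -1.32 and -0.96 for Pax5. These changes start from the high 10 h value of Pax5, and the other bins were not matched for it. The share of autosomal read pairs within a chromosome was 75.1 and 74.6% at 10 h, 71.3 and 70.9% at imminent division, then 74.1 and 72.1% at pre-S. Its part in the change was not tested. The B bin counts are small, and with bin coverage divided out the fall to imminent division was -1.27 and the adjusted exact permutation p 0.0508.

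The total interactivity of the promoter changed little. Promoter interactivity is the sum of a start bin's read pairs within the chromosome that stand above the level usual for their distance, in log2 CPM (counts scaled to the size of the library). At Pax5 it was 4.24 and 4.31 for 3 h, 4.30 and 4.25 for 10 h, 4.18 and 4.16 for imminent division, then 4.28 and 4.23 for pre-S, higher than in 95.9% of 12349 promoter bins. On this scale only the imminent division libraries lay apart. The change from 10 h was -0.10 (SE 0.04, edgeR FDR 0.0220) at imminent division and -0.02 (SE 0.04, edgeR FDR 0.745) at pre-S, with -0.01 (edgeR FDR 0.970) from 3 h to 10 h and -0.08 (edgeR FDR 0.134) between the 33 h groups. The first was not called without the first 10 h library (edgeR FDR 0.197) or either imminent division library (edgeR FDR 0.0543 and 0.127), and it was 0.05 (edgeR FDR 0.186), of the other sign, when all read pairs of the bin were summed. It was also not called with TMM factors (edgeR FDR 0.0504) or by DESeq2 (adjusted p 0.139), and with TMM factors the change at pre-S was -0.10 and called (edgeR FDR 0.0489). A difference between the 33 h groups is not shown by these calls.

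Of the genes beside Pax5, Zcchc7 had 3.92 and 4.12, 3.98 and 3.95, 3.96 and 3.99, and 4.03 and 3.99 log2 CPM in the order of the groups and was called in no comparison. Grhpr had 3.93 and 4.04, 4.05 and 4.02, 3.82 and 3.78, and 3.86 and 3.88, and fell from 10 h by 0.24 at imminent division (SE 0.04, edgeR FDR 4.08e-06) and by 0.17 at pre-S (SE 0.04, edgeR FDR 0.00304). On the other side, Melk had 3.16 and 3.05 at 3 h and 3.37 and 3.41 at 10 h, a rise of 0.29 (SE 0.05, edgeR FDR 5.30e-04), a call lost without the second 10 h library. Both 10 h libraries lay above both 3 h libraries. At imminent division Melk then fell by 0.12 (SE 0.05, edgeR FDR 0.0197).

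Over the 47 promoter bins of the window, 3 were more interactive at 10 h than at 3 h (Melk and Ccdc180 among them), against 0.761% of all promoter bins. Without the second 10 h library 0 of these calls were left, and without the second 3 h library 1 bin was called. From 10 h to imminent division 26 were less interactive, against 25.5% of all promoter bins, and 0 were more interactive, against 25.4%. From 10 h to pre-S 18 were less interactive, against 15.8%, and 0 more, against 16.8%. The medians of the window were -0.11 and -0.10, against -0.0029 and -0.0017 over all promoter bins. Between the 33 h groups 1 was less interactive, the bin of Cd72 (-0.13, SE 0.05, edgeR FDR 0.0347), against 11.8%, and 0 more, against 10.8%. Without the second 10 h library or the first imminent division library the 26 became 17 and 15, and the 18 became 6 to 10 without any 1 of the 10 h or pre-S libraries.

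**Figure D5:**
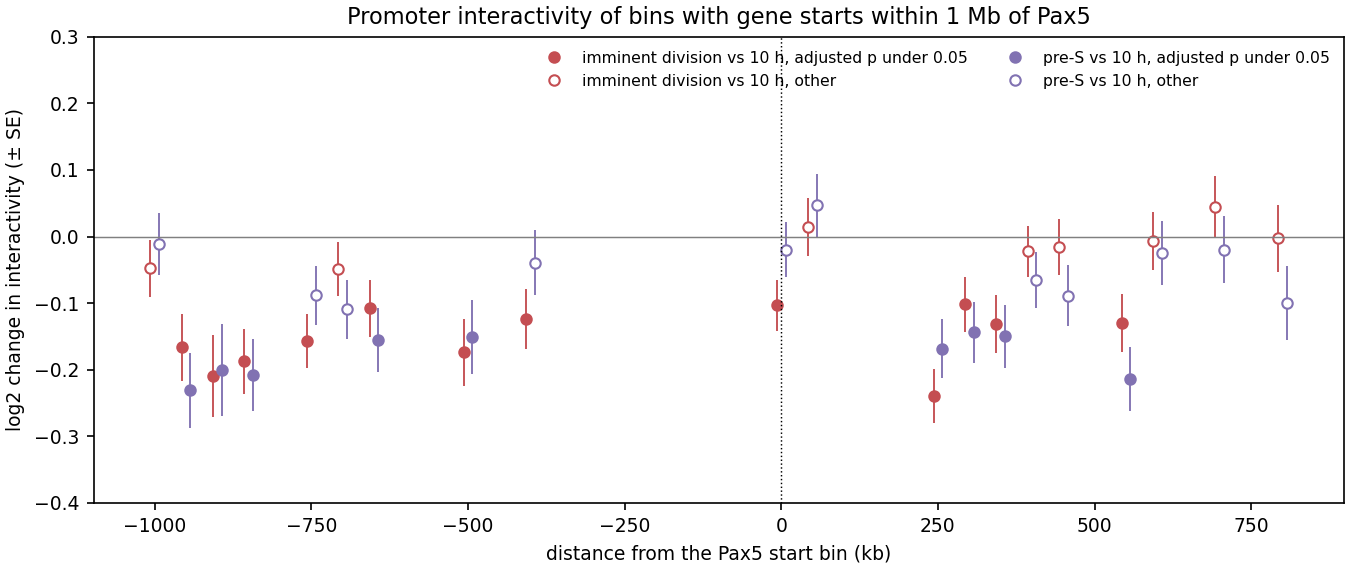
Log2 change in promoter interactivity (± SE) of the promoter bins within 1 Mb of the Pax5 start, for imminent division against 10 h and pre-S against 10 h, against distance in kb; filled points have an edgeR FDR under 0.05. Grhpr at +250 kb lies lowest among the bins near Pax5, at -0.24 for imminent division.

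Genes of the network around Pax5 were followed in lists of known regulators and targets. Of 13 regulators of B cell identity, 0 changed from 3 h to 10 h, where 0.761% of all promoter bins rose. At imminent division 5 were less interactive than at 10 h and 1, Bcl6, more so (0.14), against 25.5% and 25.4% of all promoter bins. Those of smallest p were Spib (-0.23, edgeR FDR 4.82e-06) and Irf8 (-0.18, edgeR FDR 5.04e-04), factors of the ETS and IRF families, and Tcf3 (-0.14, edgeR FDR 0.00199), which encodes the E2A proteins. Spib, Irf8 and Tcf3 were also the 3 of 13 that fell at pre-S, against 15.8% of all promoter bins. Ebf1, which acts with Pax5 in commitment, was lower by 0.12 at imminent division than at pre-S (edgeR FDR 0.0261). It was the 1 of 13 called lower in this comparison, against 11.8% of all promoter bins, and 0 were higher, against 10.8%.

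Of 12 genes that Pax5 is known to activate, 5 were less interactive at imminent division than at 10 h and 1 more. They included Cd79a, a chain of the B cell receptor (-0.23, edgeR FDR 4.34e-05), and Nedd9, an adaptor of adhesion signalling (-0.17, edgeR FDR 5.03e-04), while the gene of the transcription factor Lef1 rose (0.24, edgeR FDR 4.58e-06). At pre-S 4 were lower and Lef1 higher (0.27, edgeR FDR 1.14e-05), where 15.8% of all promoter bins fell and 16.8% rose. The 8 genes that Pax5 is known to repress had 5 more interactive and 0 less at imminent division. Prdm1, which encodes Blimp-1, rose by 0.48 (edgeR FDR 2.26e-10), Cd28, a T cell co-stimulatory receptor, by 0.38 (edgeR FDR 8.01e-06) and the chemokine gene Ccl3 by 0.21 (edgeR FDR 2.58e-05), and Xbp1 and Jchain were the other two. At pre-S only Prdm1 passed (0.22, edgeR FDR 0.00213), and Cd28, Prdm1 and Ccl3 were higher at imminent division than at pre-S (0.42, 0.26 and 0.15), where 10.8% of all promoter bins were higher and 11.8% lower. The median changes from 10 h to imminent division were -0.06, -0.08 and 0.14 for the 3 lists, against -0.0029 over all promoter bins, of which 25.4% rose and 25.5% fell. Several of these starts share their bin with other genes, which the counts cannot separate.

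Outside the window, the promoter bins whose interactivity ran most like that of Pax5 over the 8 libraries included those of Insig2 (Pearson r = 0.973), Nlrp4b (0.963), Adgrl3 (0.960) and Nlrp5 (0.958), as a description over libraries that share their depth and normalization. Of 12302 bins 67 had r over 0.9. Zcchc7 had r = 0.478 and the other bins of the window ranged from -0.771 to 0.889.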

How the data were processed

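The deposited matrices hold raw counts of read pairs between 50 kb bins, which the authors made with diffHic after trimming with cutadapt and alignment to mm10 with bowtie2, marking duplicates and removing dangling ends. Bin positions were rebuilt from the MboI sites of GRCm38, and 748 of 48088 autosomal bins were left out for undetermined sequence over 10% or for coverage more than 4-fold above or below the median. The excluded regions named in the methods were not used here. The locus, the gene lists and the tests were chosen with earlier results of these data known.

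Bin pairs with a summed count of at least 10 and an abundance over 4-fold the background between chromosomes were fitted across all 8 libraries with loess offsets, apart for pairs under 1.5 Mb, in edgeR 4.0.16 (R 4.3.3) by the quasi-likelihood test with Benjamini-Hochberg adjustment over all pairs. Promoter sums (at least 200 read pairs, with loess offsets) and boundary ratios were fitted in edgeR and compartment components in limma 3.58.1. Single values used exact permutation tests and a pseudocount of 0.5 read pairs. The group layout was one-way, and 4 comparisons were made. The scripts were tested on simulated data with known changes. Sequences came from RefSeq and GRCm38, and genes from GENCODE vM21.

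Named were Pax5, Zcchc7, Grhpr and Melk, the 5 partner bins at least 100 kb away with the highest mean log2 O/E, up to 5 DIs of the start bin and the 3 of smallest p in each direction of the window in each comparison, the 5 bins most like Pax5 in interactivity, and up to 3 genes of each list. Some items under these rules are not reported here. The lists had 13, 12 and 8 genes. Alternatives covered the offsets, the filters, DESeq2 1.42.0, the block and leaving out each library. The p-values measure the spread between 2 libraries of each group.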

Additional observations from a re-analysis of the deposited data

How the results depend on the processing

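Beyond the values without single libraries given above, the results depended on the offsets, the abundance filter and the test. With TMM factors the start bin had 9 DIs from 10 h to imminent division, 5 to pre-S and 1 between the 33 h groups, the gene 1 between the 33 h groups and the window 66 to pre-S. With the coverage of each bin in the offsets the start bin had 8, 0 and 2 DIs in these comparisons, the window 11 to pre-S (3 of them stronger) and 65 between the 33 h groups, pairs within the gene 0 to pre-S and 3 between the 33 h groups, and pairs with Zcchc7 3 and 6. With offsets for each distance class the window had 102, 10 and 2 DIs, the start bin 1 to pre-S and pairs with Zcchc7 0 to pre-S. With the filter at 2-fold the window had 107, 16 and 3, and the start bin, pairs within the gene and pairs with Zcchc7 1 each to pre-S. DESeq2 called 58, 18 and 0 in the window, of 239, 239 and 2251 pairs given an adjusted p, and 2 pairs with Zcchc7 to pre-S. From 10 h to imminent division, pairs within the gene had 8 to 10 calls of 10 and pairs with Zcchc7 10 to 19 of 20 under these alternatives, all weaker (DESeq2 gave an adjusted p to 8 and 14 of them).

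The interactivity of Pax5 from 10 h to imminent division was -0.0932 and not called with TMM (edgeR FDR 0.0504) or DESeq2 (-0.0900, adjusted p 0.139), and 0.0530 with no filter on single interactions; to pre-S it was -0.10 and called with TMM (edgeR FDR 0.0489). Window promoter bins called were 15 to imminent division by DESeq2, 8 (bin coverage) and 32 (no filter) to pre-S, 0 (no filter) and 1 (DESeq2) from 3 h to 10 h, and 5, 5, 2 and 0 (TMM, bin coverage, no filter, DESeq2) between the 33 h groups. The compartment component from 10 h to imminent division was 0.0890 and called with quantile normalization. Boundary regions numbered 3 from 3 h to 10 h, 31 from 10 h to imminent division, 17 to pre-S and again 17 between the 33 h groups, with no fold threshold, and with 500 kb flanks 2, 1 and 2 in the first, the third and the last of these. With counts divided by bin coverage the falls to imminent division were -0.59 (start bin with Zcchc7), -0.77 (with the gene), -0.71 (within the gene), -0.52 (within 2 Mb), -1.27 (A over B) and -0.26 (over the window). The exact permutation test over the 4 groups then had an adjusted p above 0.05 for all but the last, for which it was below 0.05. The falls themselves were not tested.

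Leaving out each library gave, from 10 h to imminent division, 43 to 199 DIs in the window, 2 to 5 at the start bin, 4 to 10 within the gene and 8 to 15 with Zcchc7. To pre-S these were 1 to 48, 0 to 3, 0 to 4 and 0 to 6, and between the 33 h groups the window had 1 to 11. Window promoter bins called were 0 to 4, 15 to 27, 6 to 19 and 0 to 3, boundary regions 1, 15 to 18, 1 to 3 and 1 to 7. Pax5 interactivity to imminent division ranged from -0.13 to -0.0816, its component from 0.0800 to 0.10 (-0.13 to -0.0035 from 3 h to 10 h), and the start bin within 2 Mb from -0.40 to -0.32. The sums within the gene and of the start bin with the gene and with Zcchc7, the insulation score and A over B fell from 10 h to imminent division in every case.

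Same replicate numbers gave no positive pairing: deviations of same-numbered libraries from their group means correlated at r = -0.22 to 0.10 over the 6 pairs of groups, with 0 above 0.1. The lowest r was for 3 h with imminent division. A pairing other than by the same number, or a batch, was not tested. With the replicate block the window had 0, 171, 36 and 8 DIs, the start bin 0, 5, 3 and 0, and Pax5 interactivity was -0.10 from 10 h to imminent division (edgeR FDR 0.0335). The block changed no call of a count or single value given for the locus by over 1.5 times; of the named pairs, that of +1350 and +1500 kb was no longer called between the 33 h groups. Depth limits distant pairs: single bin pairs beyond 1 Mb of the start bin hold few read pairs.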
